A study of Mus musculus with 3 samples.

Results

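Chemokines and interleukins are secreted proteins with which cells of the immune system, the vessel wall and connective tissue signal to each other, and the genes described here encode these proteins and their receptors. They were taken from an expression array of normal mouse muscle by gene symbol: every symbol that began with Ccl, Cxcl, Ccr, Cxcr or Il and a digit, on a probe set (the short probes that together read out a transcript) annotated to a single gene. Genes of the Ccr4-NOT complex, which share only the name, did not enter. The rule gave 111 of 12394 measured genes, on 152 probe sets. They were 30 chemokines, 15 chemokine receptors, 33 interleukins, 31 interleukin receptor chains, the interleukin 18 binding protein Il18bp, and Il4i1, an enzyme that is named after interleukin 4 and is no cytokine.

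The samples were 3 pieces of normal muscle, called muscle 1, muscle 2 and muscle 3, from control littermates aged 3 to 6 weeks, each hybridised to 1 array. The study used them as the normal tissue beside tumours that arose from Pax7-expressing satellite cells. The tumours were not analysed here, so no group was compared with another. The labels name no strain, sex or muscle, do not say that the 3 muscles came from separate animals, and give a treatment, injection of 4-hydroxytamoxifen into the hindlimb, only in a text on mice with tumours. Every SD below therefore is a spread between 3 samples only, and it may be technical in origin, as may any p-value from it.

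Chemokines draw cells along a gradient through receptors that couple to G proteins. The CC and CXC families are told apart by the spacing of their first cysteines, and some members are made constantly by tissue cells while others are made mostly in inflammation. Interleukins bind receptors built of several chains, of which a shared chain such as gp130 or the common gamma chain serves many ligands. In muscle, such signals are known to bring leukocytes to injured fibres and to act on satellite cells during repair.

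A level is the deposited log2 value of a gene's highest probe set by mean, so a difference of 1 is a 2-fold difference. A gene was called above background in a muscle where it was over a limit set by genes of other organs, such as retina, testis and liver: 82 such genes had 111 probe sets, and the limit was their 95th percentile. The background came to 5.94 for muscle 1, 5.86 for muscle 2 and 5.98 for muscle 3. Since binding strength varies from probe to probe, levels of single genes were not ranked, and transcription of a gene below background is possible. In whole tissue, fewer cells of a type and less RNA per cell cannot be told apart. All 10 listed skeletal muscle genes were above background in every muscle, with the actin Acta1 at 13.58, 13.63 and 13.65 in muscles 1, 2 and 3. Markers of other cells were also measured: 8 of 12 macrophage genes, 4 of 13 genes of T and NK cells, 4 of 6 B cell genes, 1 of 8 neutrophil genes, 4 of 10 genes of mast cells and eosinophils, 1 of 5 dendritic cell genes, 7 of 8 endothelial genes, all 7 fibroblast genes and 3 of 4 adipocyte genes were above background in all 3 muscles. Their part in the levels below was not tested.

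Most of these signalling genes lay below background in this normal muscle. Of the 111, 25 were above it in all 3 muscles, which is 22.5%, while 58.5% of all 12394 genes were. Another 10 were above it in 1 or 2 muscles. The remaining 76, or 68.5%, were below it in every muscle, while 36.9% of all genes were. The chemokines and the receptor chains held nearly all of the detected genes. In all 3 muscles 11 of 30 chemokines, 2 of 15 chemokine receptors and 9 of 31 interleukin receptor chains were above background, but only 2 of 33 interleukins. Of the background genes themselves 6 of 82, or 7.32% passed the same rule. The 6.06% of interleukins that passed is close to that share. These counts are descriptions of 1 tissue, with no contrast to test.

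**Figure D1:**
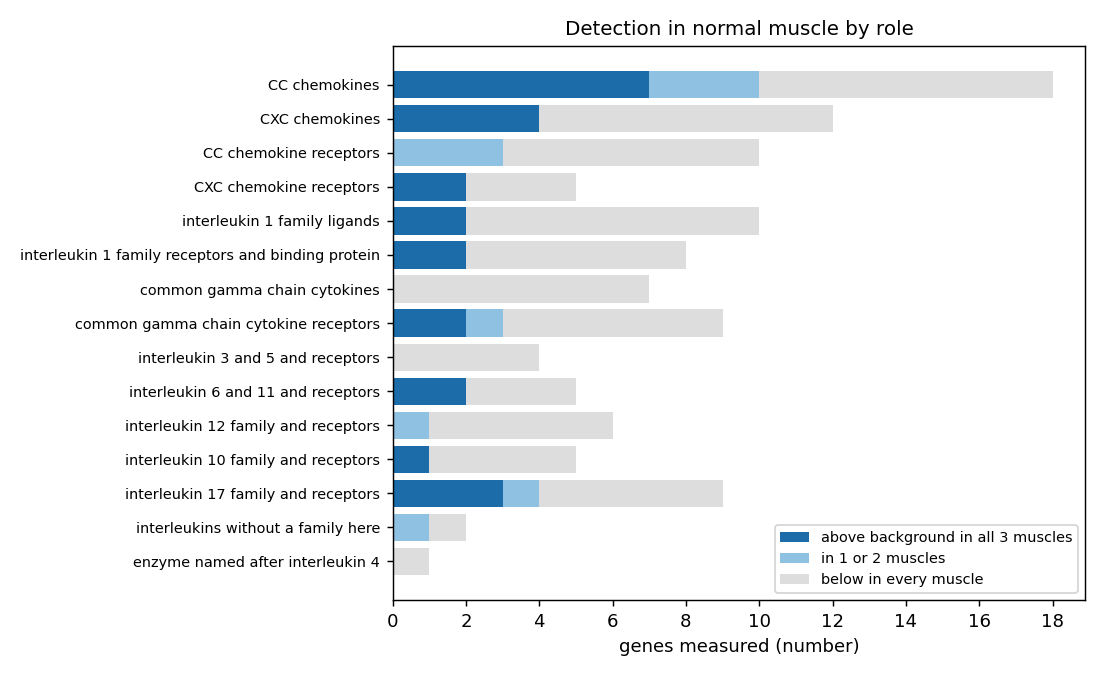
Number of genes in each role (horizontal axis) that were above background in all 3 muscles (dark blue), in 1 or 2 muscles (light blue) or in none (grey). CC chemokines, the largest role, had the most detected genes, 7 of 18. No gene grouped as a common gamma chain cytokine (0 of 7, Il13 included) and no CC chemokine receptor (0 of 10) was above background in all 3.

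Among CXC chemokines, 4 of 12 were above background in every muscle. Cxcl12, the chemokine that retains stem cells and leukocytes in tissues, was at 9.40, 9.38 and 9.51 in muscles 1, 2 and 3 (mean 9.43 ± 0.07, SD, n = 3). Its second probe set was above background as well, at 7.98, 7.91 and 7.71. The 3 muscles thus lay within 0.133 of each other on the first probe set, with muscle 3 highest, whereas muscle 3 was lowest on the second.

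Cxcl14, a chemokine of epithelia and connective tissue, was at 7.95, 7.86 and 7.91 (7.91 ± 0.05), and its other probe set was above background in all 3 muscles too. Cxcl13, which draws B cells into lymphoid follicles, was at 6.93, 7.10 and 6.95 (SD 0.10), with a second probe set above background in muscle 3 only. Cxcl16, a chemokine made as a membrane-bound protein, was at 6.55, 6.55 and 6.63 (6.58 ± 0.05). Its other probe set was below background throughout, with a mean of 4.65. The remaining 8 CXC chemokines were below background in every muscle, with means from 3.36 for Cxcl15 to 5.65 for Cxcl17. They included the neutrophil attractants Cxcl1 (4.82 ± 0.10), Cxcl2 (3.82 ± 0.43) and Cxcl5 (3.75 ± 0.15), and the interferon-induced Cxcl9 (5.01 ± 0.36), Cxcl10 (5.08 ± 0.16) and Cxcl11 (4.49 ± 0.08).

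The DNA before the transcription starts of CXC chemokines on both sides of background is shown for comparison, with the shared signal-transducing receptor chain Il6st (gp130), which was above background. Each sequence holds the 120 bases up to the start, 5′ to 3′, from the RefSeq annotation of GRCm38.p6. Capitals mark a match to the consensus of NF-kB, the transcription factor of inflammatory signalling, or the letters ATAAA lying 16 to 40 bases before the start, where a TATA box lies in many promoters.
Cxcl12 (chr6:117168415-117168534, plus strand): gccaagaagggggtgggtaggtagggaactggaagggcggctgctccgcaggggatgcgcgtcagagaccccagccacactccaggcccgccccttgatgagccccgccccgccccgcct
Cxcl14 (chr13:56296552-56296671, minus strand): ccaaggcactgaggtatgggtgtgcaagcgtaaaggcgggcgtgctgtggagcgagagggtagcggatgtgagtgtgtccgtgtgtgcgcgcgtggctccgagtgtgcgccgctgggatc
Il6st (chr13:112463950-112464069, plus strand): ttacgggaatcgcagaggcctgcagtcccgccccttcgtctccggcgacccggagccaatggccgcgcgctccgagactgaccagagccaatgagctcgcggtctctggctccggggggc
Cxcl1 (chr5:90891125-90891244, plus strand): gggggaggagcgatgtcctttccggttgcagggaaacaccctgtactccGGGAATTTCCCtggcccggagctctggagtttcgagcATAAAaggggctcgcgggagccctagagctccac
Cxcl2 (chr5:90903779-90903898, plus strand): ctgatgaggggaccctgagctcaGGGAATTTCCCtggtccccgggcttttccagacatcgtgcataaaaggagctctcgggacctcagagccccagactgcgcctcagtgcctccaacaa
Cxcl10 (chr5:92348890-92349009, minus strand): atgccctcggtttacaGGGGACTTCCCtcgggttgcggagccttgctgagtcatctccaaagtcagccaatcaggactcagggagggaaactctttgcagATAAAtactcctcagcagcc
The windows of Cxcl12, Cxcl14 and Il6st held 8, 12 and 14 CG pairs and no capitals, and those of Cxcl1, Cxcl2 and Cxcl10 held 7, 4 and 3 CG pairs and an NF-kB match each. These 6 genes were picked after their levels and windows were seen. A match is a run of letters and no measurement of binding.

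Over the 83 members with a promoter in the table, the same letters were counted. For a gene with several windows, a match in any of them counted, and the highest ratio of CG pairs was used. The letters ATAAA at that place were found for 16 of 44 ligands (36.4%) and 2 of 37 receptors (5.41%), against 5.16% of the 9883 genes of the array in the table. Among ligands they were found for 14 of 32 that were below background in every muscle (43.8%) and 1 of 8 that were above it in all 3, the interleukin Il33. All genes of the array leaned the same way, with 8.62% of those below background in every muscle and 3.17% of those above it in all 3, whereas receptors had 1 of 25 and 1 of 9. The NF-kB consensus, searched on both strands of 300 bases, was found for 9 of 44 ligands (20.5%) and 7 of 37 receptors (18.9%), against 1184 of the array's 9883 genes. Its split by detection did not follow the printed windows, with 5 of 32 ligands below background in every muscle (15.6%) and 1 of 8 above it in all 3 (12.5%). Chemokines alone had it in 7 of 20 cases. The Stat consensus, TTC and GAA with 3 bases between them, searched on both strands, was found for 13 of the 83 members (15.7%), against 8.45% of the array's genes. CG pairs in the 250 bases before the start were scarce: the median ratio of observed to expected was 0.246 for ligands and 0.292 for receptors, against 0.694 for the array's genes. It was 0.270 for members above background in all 3 muscles and 0.252 for those below it in every muscle. In contrast, it was 0.778 and 0.434 for all genes of those kinds. The motifs were chosen after some of the windows had been read, and no test was made.

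**Figure D2:**
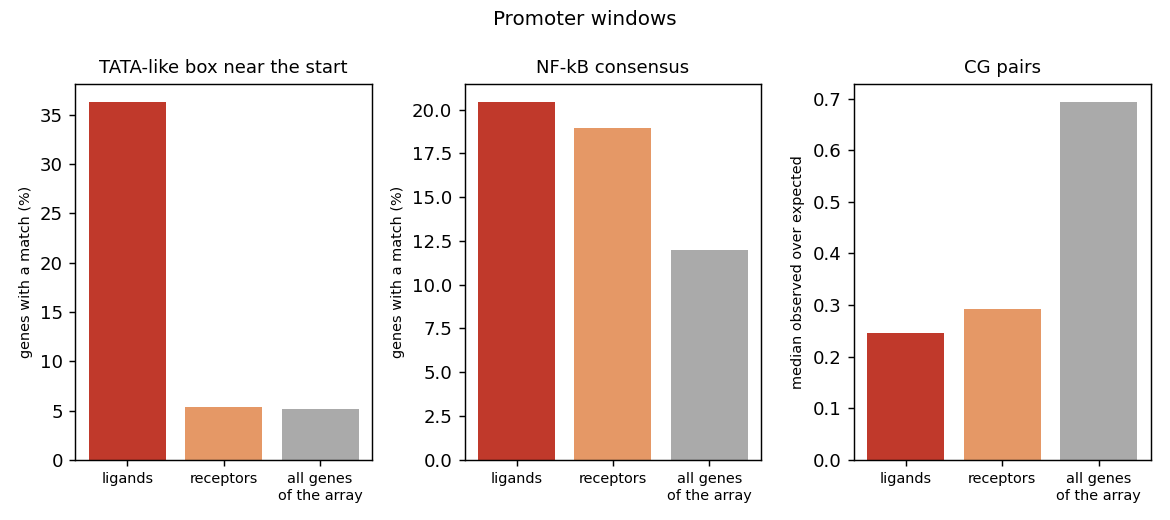
Share of genes with a TATA-like box 16 to 40 bases before the start (left, percent) or an NF-kB consensus (middle, percent), and median ratio of observed to expected CG pairs (right), for ligands, receptors and all genes of the array. The TATA-like box stood before 36.4% of ligands, against 5.41% of receptors and 5.16% of all genes.

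CC chemokines, the largest role, had the highest count above background, 7 of 18 (38.9%) in all 3 muscles and 3 more in 1 or 2. By share they did not lead: CXC chemokine receptors and the group of interleukins 6 and 11 with their receptors had 2 of 5 each (40%). The share over all genes was 58.5%. Ccl5, which attracts T cells, was at 7.03, 6.91 and 7.14 in muscles 1, 2 and 3 (7.03 ± 0.11). Ccl6 was at 6.99, 6.81 and 6.94 (6.91 ± 0.09) and its neighbour Ccl9, like it a rodent chemokine of macrophages and other myeloid cells, at 7.01, 6.89 and 6.81 (6.90 ± 0.10). A second probe set of Ccl6 was above background only in muscle 1, and the second of Ccl9 was below it throughout, with a mean of 4.75. Within each of these genes the 3 muscles differed by less than 0.23.

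Both eotaxins measured, which attract eosinophils, were above background. Ccl11 was at 6.70, 6.62 and 6.43 (6.58 ± 0.14), and Ccl24 at 6.66, 6.36 and 6.70 (6.58 ± 0.19). Of the listed mast cell and eosinophil genes the eosinophil genes Siglecf, Prg2 and Epx were below background in every muscle, with means of 2.69, 3.60 and 3.57. Ccl4, an inflammatory chemokine of macrophages and lymphocytes, was at 6.31, 6.37 and 6.58 (6.42 ± 0.14), and Ccl25, known from thymus and small intestine, at 6.25, 6.16 and 6.22 (6.21 ± 0.05). Ccl25 was under 0.5 above background in every muscle.

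Ccl8, Ccl20 and Ccl27a straddled the background level. Ccl8, listed here with the receptor Ccr8, was at 6.15 and 6.14 in muscles 1 and 2 and at 5.93, just below background, in muscle 3. Ccl20, the ligand of Ccr6, was at 5.88 in muscle 1, below background, and at 6.20 and 6.10 in the others. Ccl27a, known from skin, was at 6.06, 5.88 and 5.95, below background in muscle 3. The 8 CC chemokines below background in every muscle had means from 3.68 for Ccl1 to 5.25 for Ccl22, and included the monocyte attractants Ccl2 (5.19 ± 0.11), Ccl7 (4.34 ± 0.25) and Ccl12 (4.44 ± 0.10), with Ccl3 at 4.09 ± 0.07.

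Many of these genes lie side by side in the genome, and the counts differed between such clusters. In the order of protein-coding genes of RefSeq (GRCm38.p6), 110 members were placed, and 37 of them lay in 8 runs of at least 3 members with no more than 2 other genes between neighbours. In the run Ccl5, Ccl9, Ccl6, Ccl3 and Ccl4, 4 of 5 were above background in all 3 muscles. In the run Ccl2, Ccl7, Ccl11, Ccl12, Ccl8 and Ccl1 the count was 1 of 6, Ccl11. None was above background in every muscle in the run of 6 receptors Ccr9, Cxcr6, Ccr1, Ccr1l1, Ccr3 and Ccr2, in the run Cxcl15, Cxcl1 and Cxcl2, in Il4, Il13 and Il5, in Il24, Il20 and Il10, or in the 6 members of the interleukin 1 family from Il1f8 to Il1rn. In the receptor run Il1r2, Il1r1, Il1rl2, Il18r1 and Il18rap the count was 1 of 5, Il1r1. In all, 6 of 37 members in runs (16.2%) and 19 of 73 others (26.0%) were above background in all 3 muscles.

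Chemokine receptors were mostly below background. Cxcr4, the receptor of Cxcl12, was at 7.09, 7.13 and 6.97 in muscles 1, 2 and 3 (7.06 ± 0.08), at least 0.99 above background in each. Cxcr3, a receptor of activated T cells, was at 6.53, 6.30 and 6.47 (6.43 ± 0.12). No other receptor of either family was above background in all 3 muscles.

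Ccr6, Ccr7 and Ccr10 each passed in a single muscle. Ccr6, found on lymphocytes and dendritic cells, was at 5.79 and 5.78 in muscles 1 and 2 and at 5.98 in muscle 3. Ccr7, which guides cells to lymph nodes, was at 5.82, 5.88 and 5.94, above background only in muscle 2, where that level was lowest. Ccr10, the receptor of Ccl27 and Ccl28, was at 5.30, 5.63 and 6.05. The whole range between muscles was 0.203 for Ccr6 and 0.124 for Ccr7, so these calls rest on small distances from the background level. The other 10 receptors had means from 2.81 for Ccr3 to 5.57 for Ccr1. They included Ccr2, the monocyte receptor, whose 3 probe sets had means from 2.82 to 4.06, and Cxcr2, the neutrophil receptor (3.39 ± 0.32).

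**Figure D3:**
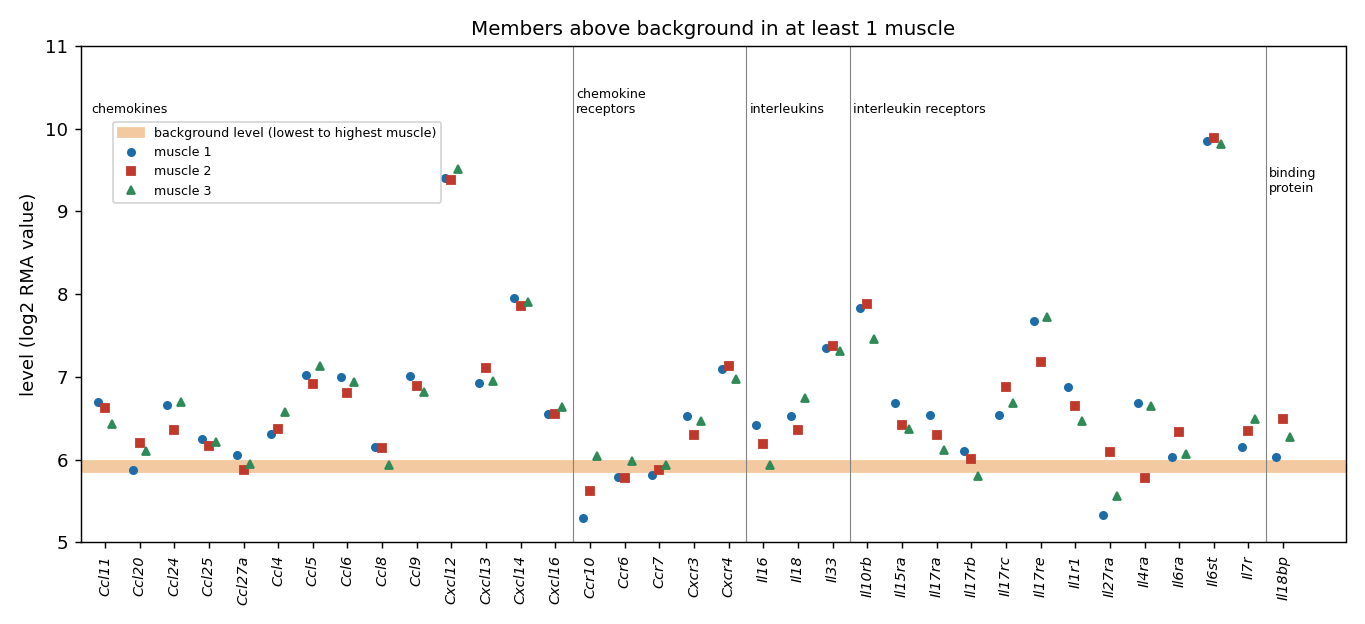
Level (vertical axis, log2 RMA value) in muscle 1 (circles), muscle 2 (squares) and muscle 3 (triangles) of the 35 genes above background in at least 1 muscle, grouped by role, with the band of the 3 background levels from 5.86 to 5.98. Cxcl12 and Il6st lay far above the band in all 3 muscles, whereas Ccr6, Ccr7 and Ccl27a lay on it or close to it.

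Of the 33 interleukins, Il33 and Il18 were above background in all 3 muscles. Both belong to the interleukin 1 family and are stored in cells before release. Il33, kept in the nuclei of connective tissue and vessel cells, was at 7.34, 7.37 and 7.31 (7.34 ± 0.03), the smallest SD among detected members. Il18, which is cut to its active form by the inflammasome, was at 6.53, 6.36 and 6.75 (6.54 ± 0.20). Il16, a ligand of Cd4, was at 6.42, 6.19 and 5.94 and was below background in muscle 3, and its second probe set was below it throughout, with a mean of 4.43.

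The other 30 interleukins were below background in every muscle, with means from 2.71 for Il21 to 5.55 for Il1f10. Il6, which contracting muscle is known to secrete, was at 3.08, 3.08 and 3.19 (3.12 ± 0.06). Il15, known as a cytokine abundant in muscle, was at 4.62, 4.72 and 4.42 (4.59 ± 0.15), and Il7, which maintains T cells, at 3.43 ± 0.29. Il1b, the main inflammatory interleukin of macrophages, was at 4.26, 4.53 and 4.86 (4.55 ± 0.30) and Il10, which dampens inflammation, at 3.35 ± 0.22. Il34, the second ligand of the macrophage receptor Csf1r, was at 5.08 ± 0.15. All 7 genes grouped as common gamma chain cytokines (Il2, Il4, Il7, Il9, Il13, Il15 and Il21) were below background. Il13 was placed in that group, although its listed receptor chains, Il13ra1 and Il4ra, do not include the common gamma chain. Il3 and Il5, and Il12a, Il12b and Il23a, were below background too, as was the enzyme Il4i1 (3.39 ± 0.25).

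Interleukin receptors were above background more often than their ligands. Il6st, the gp130 chain shared by the receptors of Il6, Il11 and related cytokines, was at 9.85, 9.89 and 9.82 (9.85 ± 0.03). Its other 2 probe sets had means of 5.78 and 5.48, the first above background only in muscle 3 and the second in none. Il6ra, the chain that binds Il6, was at 6.04, 6.33 and 6.07 (6.15 ± 0.16), under 0.5 above background in each muscle, with another probe set below it. Both chains of the Il6 receptor were thus measured above background, and Il6 itself was not.

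Il10rb, a chain shared by receptors of Il10, Il22 and type III interferons, was at 7.83 and 7.88 in muscles 1 and 2 and at 7.46 in muscle 3 (7.72 ± 0.23). Its partner Il10ra, which binds Il10, was below background on all 3 of its probe sets. The receptor chains of the interleukin 17 family were detected in part. Il17re, the chain for the epithelial cytokine Il17c, was at 7.68 and 7.72 in muscles 1 and 3 and at 7.18 in muscle 2 (7.53 ± 0.30), and its second probe set was also lowest in muscle 2, at 6.22 against 6.53 and 6.33. Il17ra, the common chain, was at 6.54, 6.30 and 6.12 (6.32 ± 0.21), and Il17rc, its partner for Il17a, at 6.54, 6.88 and 6.68 (6.70 ± 0.17). Il17rb was at 6.10, 6.01 and 5.80, below background in muscle 3. The ligands Il17a (4.99 ± 0.30), Il17b (4.67 ± 0.18), Il17d (5.47 ± 0.19) and Il25 (4.50 ± 0.29) were below it in every muscle.

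Il1r1, the signalling receptor of Il1a and Il1b, was at 6.88, 6.65 and 6.47 (6.67 ± 0.21), while the accessory chain Il1rap was below background on each of 3 probe sets, with a highest mean of 5.48. The decoy receptor Il1r2 and the antagonist Il1rn were below background, at 5.37 ± 0.07 and 5.19 ± 0.04. Il18bp, which neutralises Il18, was at 6.03, 6.49 and 6.27 (6.27 ± 0.23), whereas both chains of the Il18 receptor were below background, with means of 3.96 for Il18r1 and 4.46 for Il18rap.

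Among receptors of common gamma chain cytokines, Il15ra, which presents Il15 to neighbouring cells, was at 6.68, 6.42 and 6.37 (6.49 ± 0.17), and Il7r at 6.16, 6.34 and 6.49 (6.33 ± 0.17). Each had a second probe set below background, with means of 4.33 and 4.34. Il4ra, the chain for Il4 and Il13, was above background at 6.68 and 6.65 in muscles 1 and 3 but at 5.78, below it, in muscle 2. A second probe set of Il4ra read 6.32, 6.11 and 5.89 and was lowest in muscle 3, and the remaining one was below background throughout, with a mean of 4.52. The Il4ra probe sets therefore did not rank the muscles alike. Il27ra passed in muscle 2 alone, at 6.09 against 5.33 and 5.56. The 19 interleukin receptors below background in every muscle had means from 3.31 for Il1rapl2 to 5.62 for Il3ra.

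Known ligands and receptors were then read as pairs. Of 52 listed pairs the ligand was measured in 48, and in 1 of them, Cxcl12 with Cxcr4, the ligand and all listed receptor chains were above background in all 3 muscles. In 10 pairs the ligand alone was above background. They included Ccl6 and Ccl9 with Ccr1, Ccl11 and Ccl24 with Ccr3, Cxcl13 with Cxcr5, and Cxcl16 with Cxcr6. In 7 pairs all receptor chains passed and the ligand did not, among them Il6 with Il6ra and Il6st, Il17a with Il17ra and Il17rc, Il34 with Csf1r (9.85, 9.85 and 9.69 in muscles 1, 2 and 3), and Cxcl9, Cxcl10 and Cxcl11 with Cxcr3. Some receptor chains without the ligand passed in 7 pairs, and nothing in 23. Il18 and Il33 were among the ligands alone. The chain Il1rl1, which binds Il33, the chains Il11ra1 and Il23r, and the common gamma chain Il2rg have no value here. The listed pairs of Il2, Il4, Il7, Il9, Il11, Il15, Il21, Il23a and Il33 hold such a chain. They therefore could not pass on both sides, whatever the level of the ligand. Ligand and receptor need not come from the same cells, and RNA does not give the level of protein.

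**Figure D4:**
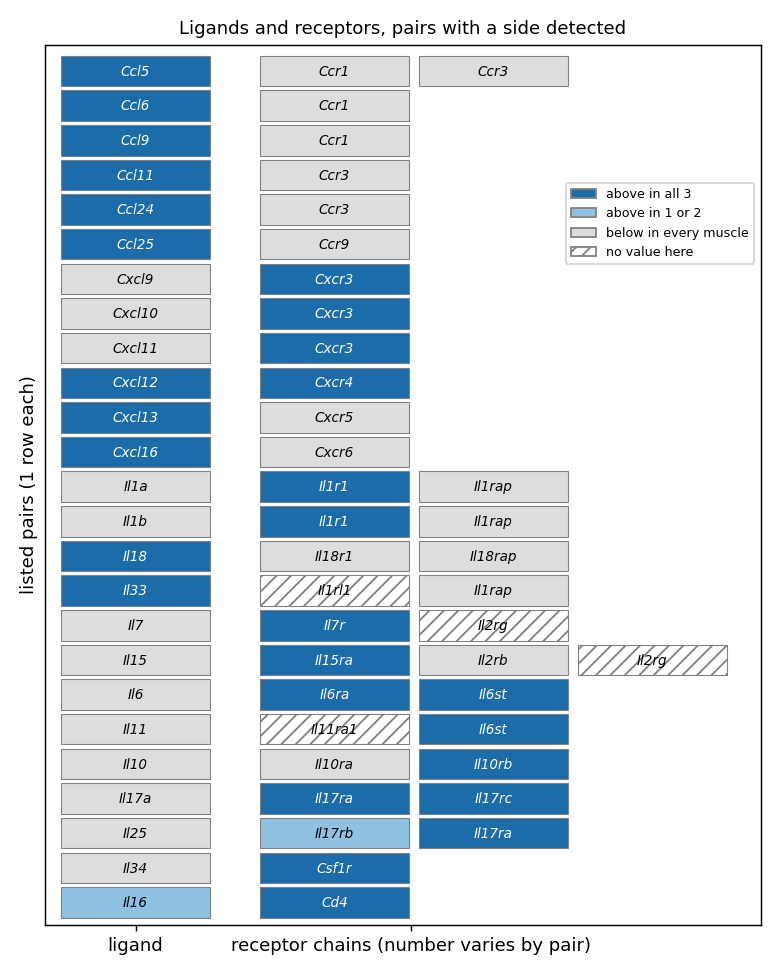
The 25 listed pairs with the ligand or a receptor chain above background in all 3 muscles, 1 pair a row, with the ligand on the left and its receptor chains on the right. Dark blue marks genes above background in all 3 muscles, light blue in 1 or 2, grey in none, and hatching a gene with no value here. The row of Cxcl12 and Cxcr4 is dark blue on both sides.

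Relatives of these genes under other symbols were detected in part. Of 11 other chemokines and chemokine receptors, 4 passed in all 3 muscles and the other 7 lay below background throughout. Ackr3, which binds Cxcl12 and removes it from the tissue fluid, was at 9.63, 9.77 and 9.64 (9.68 ± 0.08), and Ackr1, a chemokine-binding receptor of venules and red cells, at 7.54, 7.66 and 7.65 (7.61 ± 0.06). The platelet chemokine Pf4 was at 8.89 ± 0.04 and Ccrl2 at 6.24 ± 0.16. Of 19 related cytokines and receptors, 7 passed in all 3 muscles and another 4 in 1 or 2. The chains Lifr (9.11 ± 0.26) and Osmr (7.16 ± 0.08), which pair with Il6st, were among the 7, with Cntfr at 6.82 ± 0.19 and the growth factor Csf1 at 6.76 ± 0.11.

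Signalling proteins inside the cell were read beside the same share of all genes, 58.5% above background in all 3 muscles, and no difference was tested. Of 21 Janus kinases, Stat factors and their inhibitors, 15 were above it in all 3 muscles, with Jak1 at 9.73 ± 0.02, Jak2 at 8.57 ± 0.08, Tyk2 at 6.51 ± 0.10 and Stat3 at 8.66 ± 0.01. Of 17 genes of interleukin 1 receptor signalling 15 were, with the adaptor Myd88 at 7.01 ± 0.06, the kinase Irak1 at 8.65 ± 0.05, Traf6 at 7.25 ± 0.05 and Tollip at 8.70 ± 0.03. Of 15 genes of chemokine receptor signalling 10 were, with the G protein subunits Gnai1 at 8.89 ± 0.01, Gnai2 at 9.92 ± 0.05, Gnai3 at 8.13 ± 0.09 and Gnb1 at 9.38 ± 0.03. Jak3, which serves the common gamma chain, was below background at 5.66 ± 0.08. These proteins serve many other receptors.

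Of the detected members, few lay far above background, a count that also depends on how strongly each probe binds. Only 7 of the 25 lay at least 1 above background in every muscle, which is 28%, while 76.4% of the 7253 genes above background in all 3 muscles did. The 7 were Ccl5, Cxcl12, Cxcl14, Il33, Il6st, Il10rb and Il17re. In 11 of the 25 the lead over background was under 0.5 in at least 1 muscle. Of 12 detected members with several probe sets, 7 had another probe set below background in every muscle, and 3, Cxcl12, Cxcl14 and Il17re, were above it on all.

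The spread between the 3 muscles was wider for the members than for all genes by its median, with no test. The median SD was 0.140 for the 25 members above background in all 3 muscles, against 0.0781 for all such genes. Without muscle 2 these medians were 0.0783 and 0.0646. Spread grows as level drops, so the members with a mean under 8 were set beside genes of that range. The median SD was then 0.142 for 23 members against 0.109 for 3494 genes. Levels under 8 were not matched further, and the part of level in this gap was not tested. No member above background in at least 1 muscle spanned 2-fold, while 0.358% of 7819 genes did. A span of 1.5-fold was reached by 3 of 35, Il4ra (1.86-fold), Il27ra (1.69-fold) and Ccr10 (1.68-fold), while 2.88% of all genes reached it. In each of the 3 at least 1 muscle was below background, so each entered this count only through the muscles where it was high. The widest range of any member, 1.05, was that of Cxcr5, which was below background throughout at 5.38, 4.53 and 4.33, and that of Cxcl2 (0.751) was also below it.

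Whether a gene varied between muscles more than genes of like level was tested with limma's prior variance over all 7819 genes above background in at least 1 muscle. By this variance test 0 of 35 members passed an adjusted p of 0.05 (Benjamini-Hochberg), and 0.0767% of all genes did. The lowest adjusted p of a member by limma was 0.749, for Il4ra. At an unadjusted p under 0.05 there were 3 of 35 members by limma, while 5.09% of all genes passed. These limma values were 0.00699 for Il4ra, 0.0160 for Il17re and 0.0456 for Il10rb. Of the 35, 10 entered through 1 or 2 muscles only, among them Il4ra, which was below background in muscle 2. For such genes the filter itself favours an uneven muscle, so no conclusion is drawn from the value of Il4ra. The muscle apart was muscle 2 for Il4ra and Il17re and muscle 3 for Il10rb.

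Each muscle was then set against the other 2 over all detected members, as a description with no test. The median departure of a muscle from the mean of the other 2 was 0.04 for muscle 1, -0.03 for muscle 2 and 0.00502 for muscle 3 over the 35 members, against 0.03, 0.01 and -0.04 over all genes above background in at least 1 muscle. Members higher in a muscle than in the others numbered 20 of 35 in muscle 1, 15 in muscle 2 and 18 in muscle 3, while 59.8%, 54.2% and 37.3% of all genes were. In muscles 2 and 3 the median departure of the members had the opposite sign to that of all genes, but these values are small beside the members' median SD of 0.140. With the background at its 99th percentile the signs in muscle 3 were alike, at -0.0456 for members and -0.0376 for all genes. In muscle 2 they stayed opposite, at -0.0197 and 0.0127. Of the 35 members, 10 entered through 1 or 2 muscles only, those where they were above background.

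**Figure D5:**
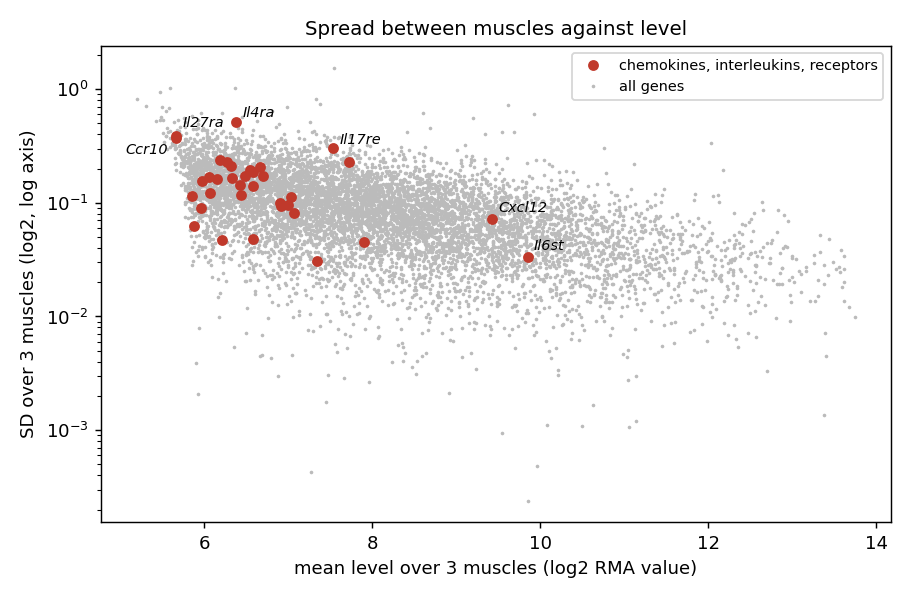
SD over the 3 muscles (vertical, log2, log axis) against the mean level (horizontal, log2 RMA value) for the 35 members above background in at least 1 muscle (red) and all 7819 such genes (grey). Most members lie on the left, with means under 8, and Il4ra, Il27ra and Ccr10 lie highest among them.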

How the data were processed

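Per the labels' protocols, Trizol was used to extract the RNA of the 3 normal muscles, of which 500 ng went into biotin labelling. The authors deposited log2 values, 1 for each of 22690 probe sets on each array. RMA is the method named by the submitters' processing notes. Which arrays were normalized together is not given in the sources used here. RMA equalises the arrays' distributions, which hides any shift common to most genes, and there are no detection calls.

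GEO's platform annotation gave 1 gene for 20393 probe sets, several for 691 and none for 1606. Probe sets with 1 gene were kept, and the highest by mean stood for its gene. By Entrez number 110 members matched a protein-coding gene of RefSeq (GRCm38.p6), and 0 of their symbols differed. The background list held 94 genes, 82 of them measured. The members, lists, pairs and named genes (every member above background in at least 1 muscle, the 5 of widest range, and the first 4 detected genes of other lists) were chosen with earlier results of these data known. Genes named outside this rule were named after their values were seen.

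The variance test used limma 3.58.1 in R 4.3.3: each gene's variance was set against a robust prior with a trend on level, in a one-sided F test adjusted over all genes. On simulated data it recovered 60% of 200 genes moved by 1 in 1 muscle and 100% of those moved by 2. The moved genes were drawn from all genes tested, so these shares do not give the recovery at the members' levels. Members above background in all 3 muscles had a median level of 6.67, against 8.07 for all such genes, and spread grows as level drops. Python 3.11.15 did the rest. The small number of arrays limits the precision. Promoter windows (250 bases before to 50 after the start) are RefSeq's, and 83 members matched. The alternatives were other scaling, probe set rules, background levels, filters and priors, and leaving out each muscle.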

Additional observations from a re-analysis of the deposited data

Results flagged for a closer look

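Probe sets annotated to several genes were left out of the gene values, and 6 of them carried a symbol of the families described here. Of these, 4 were above background in all 3 muscles. A pair with the same 5 gene names had means of 7.94 ± 0.05 and 7.12 ± 0.34. The probe set with 9 names had a mean of 7.80 ± 0.19, and the probe set with 10 names had a mean of 7.07 ± 0.19 (SD, n = 3 each). Each was flagged as signal above background in probe sets that no gene value used. No gene can be named from them.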

How the results depend on the processing

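The count of 25 members above background in all 3 muscles (58.5% of all genes) became 11 with the background at its 99th percentile (47.6% of all genes), and 14 with 0.5 added to the background, an alternative chosen after seeing the data (52.1%). It ran from 19 to 26 under the other alternatives with 3 muscles or without muscle 1 or 2, and was 29 without muscle 3. Under every alternative run, the added 0.5 included, 10 members kept the call: Ccl5, Ccl6, Cxcl12, Cxcl13, Cxcl14, Cxcr4, Il10rb, Il17re, Il33 and Il6st. With probe sets averaged, Ccl9, Cxcl16, Il15ra, Il17ra, Il6ra and Il7r lost it. The single pair, Cxcl12 with Cxcr4, gave counts from 1 to 2 on leaving out single muscles (2 without muscle 3, where Il16 with Cd4 joined). The count of members spanning 2-fold, 0, was 3 at a 1.5-fold limit and 1 without the filter, Cxcr5. By limma's variance test the count was 0 under every alternative run, with 1 to 7 members at an unadjusted p under 0.05. The median SD of 0.140 ran from 0.0783 to 0.122 over the fits on 2 muscles, against 0.0550 to 0.0668 for all genes. With all 3 muscles it was lowest with the background at its 99th percentile, at 0.0943 against 0.0692 for all genes. It was highest without the filter, at 0.150 against 0.103. Median departures, at most 0.0782 in size under any alternative, changed sign under some of them. No paired analysis was possible because there is 1 group.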
